A study of Mus musculus with 5 samples.

Results

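The 9 genes followed here mark the age of an olfactory sensory neuron (OSN), and they were read in sorted *Olfr151*-transcribing neurons as 9 of the 55411 genes in the count tables. They were chosen by name, through their Ensembl identifiers, as markers of growth and maturation: *Omp* for the mature neuron, and *Gap43*, *Gng8*, *Dcx*, *Dpysl5*, *Dpysl3*, *Crmp1*, *Stmn2* and *Tubb3* for the 8 genes of the growing or immature neuron. The libraries come from male mice, 7 weeks old and homozygous for the *Olfr151*tm26Mom knockin allele (*Olfr151*GFP/GFP), in which a neuron that transcribes the odorant receptor gene *Olfr151* also makes GFP. All animals carried the allele, and what differed was 5 h of exposure to 5% acetophenone in DMSO, an agonist of this receptor (exposed pools 1 and 3), or to DMSO alone (control pools 1, 2 and 3). Each pool combined GFP-positive, live, nucleated cells sorted from 4 mice, so a value is an average over animals and over cells of any age that made GFP. The field on sorted cells gives 200 cells per pool, as do the paper's methods for this line. The extraction protocol gives 400, the number the paper states for its other knockin line. Library totals lay between 42780403 and 49527380 counts, with 0.249% to 0.631% in spike-in RNAs and 0.709% to 1.19% in mitochondrial genes.

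The olfactory epithelium replaces its neurons throughout life. Basal stem cells give rise to dividing precursors, these to immature neurons that extend an axon toward the olfactory bulb, and these in turn to mature neurons that bear cilia, carry the odorant transduction cascade and contain large amounts of olfactory marker protein, the product of *Omp*. Immature neurons are recognised by *Gap43*, a membrane protein of growth cones, and by *Gng8*, a gamma subunit of heterotrimeric G proteins, while the proteins of *Dcx*, *Dpysl3*, *Dpysl5*, *Crmp1*, *Stmn2* and *Tubb3* bind, build or destabilise the microtubules of a growing neurite.

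All 5 pools had the marker levels of mature neurons, with *Omp* far above each immature marker in every pool. Levels between genes were compared in TPM, which divides counts by the exon length of the gene and scales every pool to the same total. *Omp* reached 25043, 25376 and 27108 TPM in control pools 1, 2 and 3 and 18762 and 18231 TPM in exposed pools 1 and 3. Its rank among all genes by TPM was 3, 2 and 2 in the control pools and 4 and 5 in the exposed pools. No immature marker passed 428 TPM in any pool, the level of *Gap43* in exposed pool 1.

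In the control pools the order of the immature markers hardly varied. *Tubb3*, the neuronal beta-tubulin, came first with 347 ± 52.3 TPM (SD, n = 3), then *Stmn2*, which codes for a stathmin that destabilises microtubules in growth cones, with 291 ± 17.8 TPM, and *Gap43* with 217 ± 24.0 TPM. The spreads of *Tubb3* and *Stmn2* overlapped, but *Tubb3* was the higher of the pair in each of the 3 control pools. A second tier held *Dpysl5* (86.1 ± 11.6 TPM), *Crmp1* (76.8 ± 8.28 TPM) and *Dcx* (51.1 ± 11.2 TPM). *Dpysl3* (28.9 ± 10.2 TPM) and *Gng8* (25.1 ± 11.8 TPM) were lowest and changed places between pools.

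The exposed pools had another order. *Gap43* was now the highest immature marker, with 371 ± 80.8 TPM (SD, n = 2), above *Stmn2* (297 ± 39.8 TPM) and *Tubb3* (204 ± 20.0 TPM). *Dcx* was the lowest of the 9 in both exposed pools, with 24.3 ± 8.04 TPM. *Dpysl3* (63.0 ± 17.5 TPM), *Gng8* (49.0 ± 4.46 TPM), *Dpysl5* (47.7 ± 9.83 TPM) and *Crmp1* (47.0 ± 0.482 TPM) lay between, and their order differed between the exposed pools. In 5 of 5 pools *Omp* was above the other 8 genes, and *Gap43*, *Stmn2* and *Tubb3* were above the other 5 immature markers, so that the order of these 3 varied only among themselves.

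**Figure D1:**
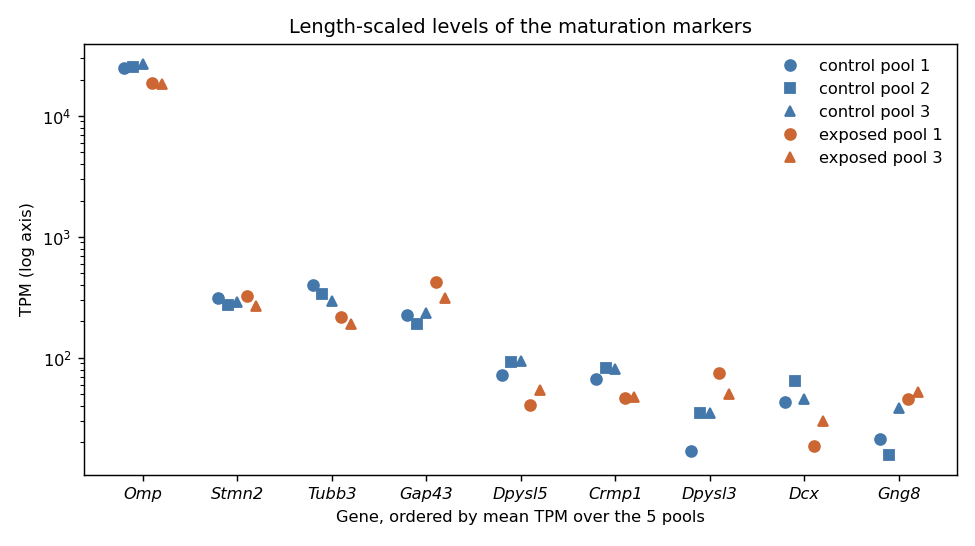
TPM of the 9 markers in each pool on a log axis, with genes ordered by their mean over the 5 pools; blue symbols are control pools and orange symbols exposed pools. *Omp* lies between 18231 and 27108 TPM, while the 8 immature markers lie at or below 428 TPM.

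Changes between conditions were tested with edgeR on the raw counts of all 10036 rows that passed the filter on low counts, which all 9 members did. Genes with a log2 fold change beyond 0.5 in either direction were called where the Benjamini-Hochberg adjusted p was also under 0.1. Values per pool are given in CPM, counts relative to the library size and scaled by TMM factors, a scale on which a gene can be compared between pools but not with another gene. The pools of a condition are separate groups of animals, and the exposed condition has only 2 of them.

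The member that passed the test was *Gap43*, which rose in the exposed pools. Its level was 106, 79.7 and 104 CPM in control pools 1, 2 and 3 and 219 and 151 CPM in exposed pools 1 and 3. The groups did not overlap, and exposed pool 1 was the highest. The log2 fold change was 0.94 ± 0.22 (SE), with an adjusted p of 0.089 in edgeR. In RNA of whole pools, a change in the number of cells that make a transcript and a change in its level per cell cannot be told apart. The call was close to the threshold, and leaving out any of the 5 libraries ended it, with adjusted p-values of 0.107 to 0.505 and log2 fold changes of 0.64 to 1.16.

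*Gap43* was thus 1 of 9 members called, where 5.27% of all tested rows were called in either direction and 3.42% were called higher. No member was called lower by edgeR, against 1.85% of all rows. At an unadjusted p under 0.05 and the same fold threshold edgeR gave 3 members higher and 4 lower, where 8.39% of all rows were higher and 9.36% lower by that rule. DESeq2 with shrunken fold changes called 2 higher (*Gap43* and *Dpysl3*) and 2 lower (*Dcx* and *Dpysl5*), with 6.69% of all rows called higher by it and 7.12% lower. The median log2 fold change of the 9 members was -0.32, and that of all tested rows was -0.026.

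A second description is whether the pools of the conditions overlap. In 8 of the 9 members they did not: the exposed pools lay above all control pools for *Gap43*, *Gng8* and *Dpysl3*, and below all of them for *Omp*, *Dcx*, *Dpysl5*, *Crmp1* and *Tubb3*. With 3 pools against 2 such a separation is frequent, and it was seen in 40.0% of all tested rows, 20.3% above and 19.6% below.

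**Figure D2:**
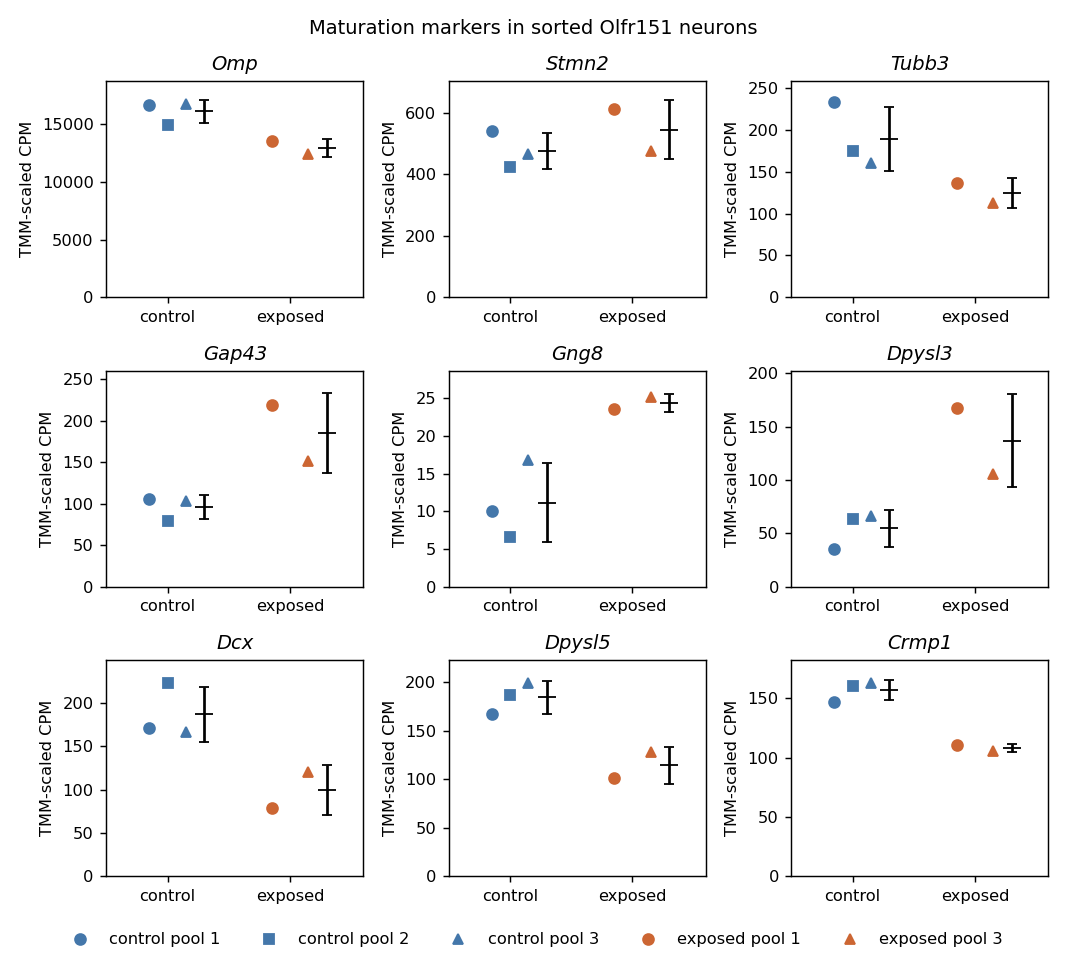
TMM-scaled CPM of each marker by pool, with each axis starting at 0; black bars are mean ± SD (n = 3 control pools, n = 2 exposed pools). The exposed pools lie above the control pools for *Gap43*, *Gng8* and *Dpysl3*, among them for *Stmn2*, and below them for the other 5 genes.

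*Omp* itself was lower in the exposed pools in these libraries but did not pass the test. It had 16666, 14985 and 16745 CPM in the control pools and 13530 and 12388 CPM in the exposed pools. Every exposed pool was below every control pool, and the ratio of the means was 0.803. The log2 fold change was -0.32 ± 0.10 (SE), smaller than the fold threshold, with an adjusted p of 0.165 in edgeR. The sign was negative under all 15 alternative settings, and none of them gave a call.

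The sorted cells were checked by the receptor gene and its reporter. *Olfr151* had 3212, 3041 and 3596 CPM in the control pools and 2421 and 2328 CPM in the exposed pools, a log2 fold change of -0.47 ± 0.12 (SE) that did not pass (adjusted p = 0.101, edgeR). The IRES-tau-GFP reporter, read in all 5 pools, had 316, 280 and 372 CPM in the control pools and 242 and 308 CPM in the exposed pools, which overlap. Its log2 fold change was -0.23 ± 0.18 (SE), with an adjusted p of 0.536 in edgeR.

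*Gng8* and *Dpysl3* had larger log2 fold changes than *Gap43* but also larger errors. *Gng8* (1522 exon bases) was the member with the fewest counts, 325 to 1052 per pool. It had 10.0, 6.58 and 16.8 CPM in the control pools and 23.5 and 25.2 CPM in the exposed pools. The control pools differed among themselves by more than the exposed pools did, and control pool 3 was the nearest to the exposed pools. The log2 fold change of 1.13 ± 0.45 (SE) did not pass the test (adjusted p = 0.24, edgeR).

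*Dpysl3* codes for CRMP4, a collapsin response mediator protein of growth cones. It had 35.2, 63.5 and 66.2 CPM in the control pools and 168 and 106 CPM in the exposed pools. Control pool 1 was the lowest and exposed pool 1 the highest, without overlap between the groups. The log2 fold change of 1.31 ± 0.33 (SE) missed the threshold (adjusted p = 0.105, edgeR). It was called by DESeq2 (shrunken log2 fold change 1.14, adjusted p = 0.00536) and by edgeR without control pool 3 (adjusted p = 0.0896).

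The 4 remaining genes whose exposed pools lay apart were all lower after exposure, and none passed the test. *Dcx* codes for doublecortin, which stabilises microtubules in young neurons. Its level was 171, 223 and 166 CPM in the control pools and 79.3 and 120 CPM in the exposed pools, with control pool 2 the highest and exposed pool 1 the lowest. The log2 fold change was -0.90 ± 0.24 (SE, adjusted p = 0.116, edgeR), and DESeq2 called it (shrunken log2 fold change -0.76, adjusted p = 0.014).

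*Dpysl5* codes for CRMP5 and *Crmp1* for CRMP1, relatives of the *Dpysl3* protein in the same family of semaphorin signalling and microtubule proteins. *Dpysl5* had 167, 186 and 199 CPM in the control pools and 101 and 128 CPM in the exposed pools. *Crmp1* had 147, 161 and 163 CPM in the control pools and 111 and 106 CPM in the exposed pools. For both genes the control pools lay close together and the exposed pools below them, while *Dpysl3* went the other way in the same libraries. The log2 fold changes were -0.69 ± 0.18 (SE, adjusted p = 0.112, edgeR) for *Dpysl5* and -0.54 ± 0.16 (SE, adjusted p = 0.138, edgeR) for *Crmp1*. DESeq2 called *Dpysl5* (shrunken log2 fold change -0.59, adjusted p = 0.0147) and not *Crmp1*, whose shrunken log2 fold change of -0.47 was below the fold threshold (adjusted p = 0.0174).

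*Tubb3* had 233, 175 and 160 CPM in the control pools and 137 and 112 CPM in the exposed pools. Control pool 1 was the highest, and the lowest control pool was above the highest exposed pool. The log2 fold change was -0.60 ± 0.21 (SE, adjusted p = 0.198, edgeR). *Stmn2* was the member whose groups overlapped, with 540, 424 and 466 CPM in the control pools and 612 and 477 CPM in the exposed pools. Its log2 fold change was 0.19 ± 0.17 (SE, adjusted p = 0.589, edgeR), and the sign turned when counts were scaled by the spike-in RNAs (-0.019) or when exposed pool 1 was left out (-0.011).

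The RefSeq promoter windows of the mouse assembly GRCm38.p6 held 5 of the 9 members in 7 windows, and the 250 bases upstream of a RefSeq transcript start are shown for the 3 windows that hold no annotated exon. Of their genes, *Dpysl5* and *Crmp1* were lower and *Gng8* higher in the exposed pools, without overlap. The *Crmp1* window shown lies inside the gene, whose span starts at chr5:37241940. The *Crmp1* window at the start of that span (chr5:37241808-37242057) holds an exon and is not shown. Each sequence reads 5′ to 3′ on the plus strand, the strand of the gene, and ends at the base before the start, at chr5:30711314-30711563 for *Dpysl5*, chr5:37245514-37245763 for *Crmp1* and chr7:16891536-16891785 for *Gng8*. Capitals mark matches to CCCNNGGG, a core of the sites bound by the EBF (olfactory neuronal factor) family.
Dpysl5: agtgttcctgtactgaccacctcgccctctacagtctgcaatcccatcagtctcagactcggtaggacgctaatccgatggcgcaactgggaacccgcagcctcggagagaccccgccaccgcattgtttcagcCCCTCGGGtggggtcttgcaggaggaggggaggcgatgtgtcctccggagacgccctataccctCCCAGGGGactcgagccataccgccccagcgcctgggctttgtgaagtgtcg
Crmp1: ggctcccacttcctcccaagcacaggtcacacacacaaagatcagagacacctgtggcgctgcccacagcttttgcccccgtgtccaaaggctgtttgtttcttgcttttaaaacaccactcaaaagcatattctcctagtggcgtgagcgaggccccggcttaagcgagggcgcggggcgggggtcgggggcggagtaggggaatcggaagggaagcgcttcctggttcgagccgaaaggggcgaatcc
Gng8: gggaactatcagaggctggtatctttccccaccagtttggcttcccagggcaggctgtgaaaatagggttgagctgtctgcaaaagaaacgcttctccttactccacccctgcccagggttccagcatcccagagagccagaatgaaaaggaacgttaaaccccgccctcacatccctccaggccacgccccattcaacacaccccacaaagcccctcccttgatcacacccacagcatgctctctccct
The *Dpysl5* window held 2 matches, starting 116 and 52 bases before the transcript start, and the other windows held none, so that 1 of 7 windows of the members had a match against 11.8% of 32851 windows of the same length. The homeodomain motif TAATTA was found in both *Dcx* windows, which overlap and hold the same match, 134 and 39 bases before their starts, and in 4.84% of all windows. The cAMP response element TGACGTCA (1.55% of all windows) and the AP-1 motif TGANTCA (6.75%) were in none of the 7. Both strands were searched, and no motif contains another. A match is a run of letters and not a measured binding site, and the count of 7 windows is too small to set against these shares.

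The 9 members have the same spans in the count tables and in GENCODE M21 (GRCm38). *Omp* is an intronless gene at chr7:98143359-98145502 on the minus strand, where its span overlaps that of *Capn5*. *Gap43* lies at chr16:42248442-42340651 on the minus strand with 3 exons in its principal transcript, *Dcx* at chrX:143855842-143933311 on the minus strand with 7, and *Dpysl3* at chr18:43320984-43438286 on the minus strand with 14. *Gng8* lies at chr7:16891786-16895436 with 5 exons, *Dpysl5* at chr5:30711564-30799375 with 13 and *Crmp1* at chr5:37241940-37292133 with 14, all on the plus strand. *Stmn2* lies at chr3:8509360-8561606 on the plus strand with 5 exons and *Tubb3* at chr8:123411424-123422015 on the plus strand with 4. The exons of the 9 members shared 0 bases with those of any other gene in the tables, which matters because reads were counted without regard to strand.

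The stage of a pool can also be read as *Omp* relative to the immature genes, and the answer then depended on the gene in the denominator. *Omp* exceeded *Gap43* in TPM 111-fold, 134-fold and 115-fold in the control pools and 43.8-fold and 58.1-fold in the exposed pools. On the log2 scale this ratio was 6.90 ± 0.14 (SD, n = 3) in the control pools and 5.66 ± 0.29 (SD, n = 2) in the exposed pools, a difference of -1.24. The ratio to *Gng8* was lower by 1.55 and that to *Dpysl3* by 1.65 on the log2 scale, and that to *Stmn2* by 0.50. By these 4 genes the exposed pools were all less *Omp*-rich than the control pools.

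By the other 4 genes the difference had the opposite sign. The log2 ratio of *Omp* to *Dcx* was higher in the exposed pools by 0.61, that to *Dpysl5* by 0.38, that to *Tubb3* by 0.28 and that to *Crmp1* by 0.22. The pools overlapped for *Tubb3* and *Dpysl5*, since exposed pool 1 was within the control pools for *Tubb3* and exposed pool 3 within them for *Dpysl5*. Taking the median of the 8 immature genes as denominator, the log2 ratio was 8.48, 8.18 and 8.28 in the control pools and 8.26 and 8.42 in the exposed pools. These values overlap, and their means differed by 0.02, less than the SD of 0.15 between control pools.

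**Figure D3:**
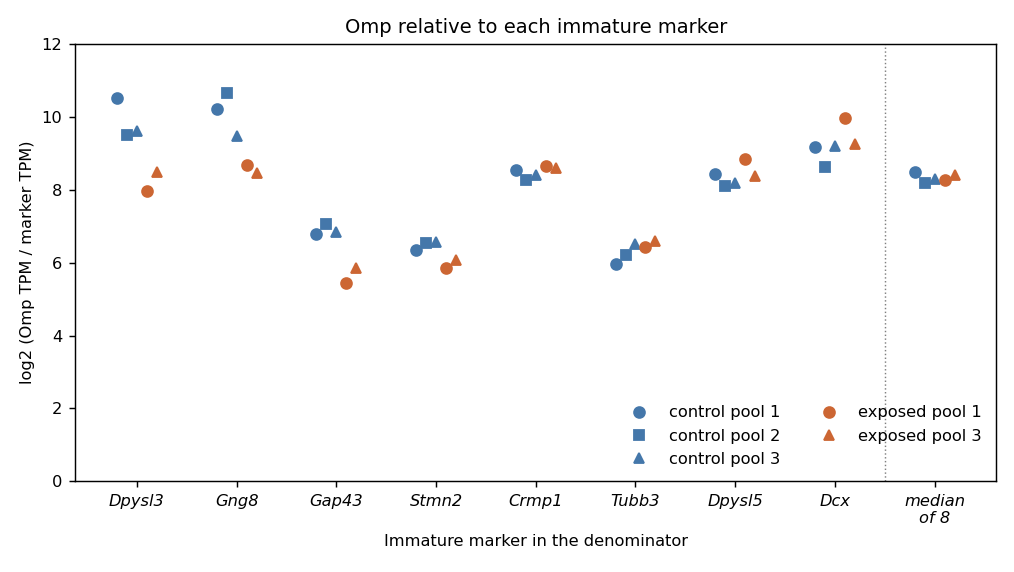
log2 of the ratio of *Omp* TPM to the TPM of each immature marker, by pool, and, right of the dotted line, the ratio to the median of the 8. The exposed pools (orange) lie below the control pools for *Dpysl3*, *Gng8*, *Gap43* and *Stmn2* and at or above most of them for the other genes, and the median ratio overlaps between 8.18 and 8.48.

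Sums over the genes showed the same division. The 8 immature markers together had 1159, 1094 and 1115 TPM in the control pools and 1198 and 1007 TPM in the exposed pools, which overlap. Within that sum, *Gap43*, *Gng8* and *Dpysl3* held 263, 241 and 309 TPM in the control pools and 549 and 416 TPM in the exposed pools, and *Dcx*, *Dpysl5*, *Crmp1* and *Tubb3* held 586, 579 and 518 TPM against 324 and 322 TPM. The ratio of the first sum to the second was 0.449, 0.416 and 0.597 in the control pools and 1.69 and 1.29 in the exposed pools. These groups were formed after their values were seen, so the sums are a description with no test. The immature markers made up 4.42%, 4.13% and 3.95% of the TPM of all 9 in the control pools and 6.0% and 5.23% in the exposed pools, without overlap. The immature sum itself overlapped, and this share was higher because the total of the 9 includes *Omp*, which was lower in the exposed pools.

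The profiles of the members over the 5 pools were set side by side as the Euclidean distance between their log2 CPM values, each centred on its own mean. The closest pair was *Omp* and *Crmp1* (0.313), then *Dpysl5* and *Crmp1* (0.340) and *Dcx* and *Dpysl5* (0.484). The farthest pair was *Dcx* and *Dpysl3* (2.7), followed by *Gng8* and *Dcx* (2.63). For comparison, the median distance to all tested rows was 0.865 for *Omp* and 1.37 for *Gap43*. Among all tested genes the profile of *Omp* was nearest to those of *Capzb* (0.0638), *Ccdc30* (0.0644) and *Ccdc189* (0.0700), with log2 fold changes of -0.31, -0.26 and -0.28 and no call in edgeR. That of *Gap43* was nearest to those of *Med22* (0.101), *Edem2* (0.192) and *Tceal9* (0.200), which were called higher by edgeR with log2 fold changes of 0.97, 0.90 and 0.98. None of the 3 was called without control pool 2, exposed pool 1 or exposed pool 3. Distances rest on 5 pools in 2 conditions and are descriptions. A gene picked for a profile near that of *Omp* or *Gap43* largely shares its fold change by that choice. The fold changes and calls of these neighbours are therefore no separate result.

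The other genes of immature neurons, 22 listed and 18 tested, were also mixed, with 2 called higher and 1 lower by edgeR. Of all rows edgeR called 3.42% higher and 1.85% lower. Higher were *Marcksl1*, an actin- and membrane-binding substrate of protein kinase C related in function to *Gap43*, and *Nhlh1*, a helix-loop-helix factor of newly formed neurons, and lower was *Stmn4*, a neuronal stathmin. *Marcksl1* had 16.2, 20.2 and 26.3 CPM in the control pools and 76.9 and 49.8 CPM in the exposed pools (log2 fold change 1.6 ± 0.32 SE, adjusted p = 0.0555, edgeR). *Nhlh1* had 0.60, 1.05 and 0.91 CPM in the control pools and 5.43 and 4.04 CPM in the exposed pools (2.47 ± 0.60 SE, adjusted p = 0.092, edgeR). It passed the filter on low counts only through the exposed pools, with 26, 52 and 42 counts in the control pools and 233 and 169 in the exposed pools. The call was lost with a filter of 10 counts (adjusted p = 0.183), with no filter (0.504) and with any library left out (0.13 to 0.627). *Stmn4* had 214, 170 and 237 CPM in the control pools and 103 and 102 CPM in the exposed pools (-1.01 ± 0.19 SE, adjusted p = 0.0445, edgeR). None of the 3 overlapped between conditions, which also held for 40.0% of all tested rows. *Marcksl1* was no longer called without control pool 2 (adjusted p = 0.168), exposed pool 1 (0.363) or exposed pool 3 (0.116), nor *Stmn4* without exposed pool 1 (0.284) or exposed pool 3 (0.182). Of the 5 most abundant genes of this list *Stmn4* passed the test, and 4 did not: *Tuba1a* (log2 fold change -0.34), *Map1b* (0.26), *Ncam1* (0.099) and *Atf5* (-0.18). The median over the 18 tested genes was 0.079. *Cd24a* and *Ablim1*, like *Nhlh1*, passed the filter only through the exposed pools, with 94 and 56 counts in control pool 1. The sign of this median rests in part on genes admitted in that way and is no result.

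Among 17 other genes of the mature neuron, all tested, 4 were lower and none was higher in edgeR, against 1.85% and 3.42% of all rows. At an unadjusted p under 0.05 and the fold threshold 5 were lower and 0 higher, against 9.36% and 8.39% of all rows. The 4 genes called by edgeR were *Rtp1*, which helps odorant receptors to reach the membrane (log2 fold change -1.07 ± 0.13 SE), and *Cngb1*, *Cnga2* and *Cnga4*, the subunits of the olfactory cyclic nucleotide-gated channel (-0.91 ± 0.17, -0.83 ± 0.12 and -0.53 ± 0.12 SE). DESeq2 also called 4 lower and 0 higher, against 7.12% and 6.69% of all rows. It had *Gnb1* (shrunken log2 fold change -1.80) in place of *Cnga4* (-0.48). Without exposed pool 1 edgeR called none of these 4 genes, with adjusted p-values of 0.123 for *Rtp1*, 0.332 for *Cngb1*, 0.108 for *Cnga2* and 0.376 for *Cnga4*. The abundant genes *Stoml3*, a stomatin of olfactory cilia, and *Gng13*, a gamma subunit of the mature neuron, did not pass, with log2 fold changes of 0.088 and -0.0014. *Gnb1* had a log2 fold change of -2.26 ± 0.63 (SE) that did not pass (adjusted p = 0.136, edgeR). Its level in control pool 3, 1886 CPM, was near the exposed pools (1316 and 1195 CPM) and far from control pools 1 and 2 (8380 and 7791 CPM). DESeq2 called it (adjusted p = 0.00747), and so did edgeR without control pool 3 (log2 fold change -2.66, adjusted p = 0.00202). The median over the 17 genes was -0.34, close to the -0.32 of *Omp*.

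Of 14 listed genes of dividing cells and neuronal precursors, 4 passed the filter on low counts, and none of them was called by edgeR or DESeq2 or had an unadjusted p under 0.05.

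Of the protein families of the members, 3 held calls by edgeR, none of them in both directions. Over all rows edgeR called 3.42% higher and 1.85% lower. In the doublecortin family *Dclk1*, a kinase with the microtubule-binding domains of doublecortin, rose from 7.96, 8.45 and 7.32 TPM in the control pools to 30.0 and 25.6 TPM in the exposed pools (log2 fold change 1.98 ± 0.20 SE, adjusted p = 0.0062, edgeR), against the lower *Dcx*. *Dclk2* (1.31) and *Dclk3* (-0.12) did not pass. Of the stathmins, *Stmn4* fell, and *Stmn1* (1.21), *Stmn2* (0.19) and *Stmn3* (-0.25) did not pass. In the group of growth cone substrates of protein kinase C, 5 genes were listed and 3 tested. Of these *Gap43* and *Marcksl1* rose, while *Marcks* (-1.06 ± 1.02 SE) did not pass and varied from 4.67 to 69.9 CPM among the control pools. *Basp1* and *Nrgn* were below the filter on low counts. *Basp1* had 31.7, 6.80 and 2.54 TPM in the control pools and 4.62 and 1.35 TPM in the exposed pools, and *Nrgn* at most 3.34 TPM in any pool.

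The beta-tubulins, gamma subunits and collapsin response mediators held no call in edgeR. For the counts that follow, the shares of all rows higher and lower were 3.42% and 1.85% in edgeR. At an unadjusted p under 0.05 and the fold threshold they were 8.39% and 9.36%, and in DESeq2 6.69% and 7.12%. Of 5 tested beta-tubulins, *Tubb2a* (log2 fold change 1.18), *Tubb2b* (0.83), *Tubb5* (0.46) and *Tubb4b* (0.18, and -0.025 with spike-in scaling) had positive values and *Tubb3* a negative value, with 1 higher and 1 lower at an unadjusted p under 0.05 and the fold threshold and 1 higher in DESeq2. Of 5 tested gamma subunits, *Gng8*, *Gng4* (2.08), *Gng3* (0.63) and *Gng5* (0.59) had positive values, with 2 higher at the unadjusted p and 1 in DESeq2. *Gng3* passed the filter on low counts only through the exposed pools. It had 136, 180 and 156 counts in the control pools and 266 and 177 in the exposed pools. Of 4 tested collapsin response mediators, *Dpysl2* (-0.20) had a small negative value, and 1 was higher and 2 lower at the unadjusted p, 1 and 1 in DESeq2. Of 13 tested microtubule and neurite growth genes, *Kif5c*, a neuronal kinesin heavy chain, was called higher (0.84 ± 0.17 SE, adjusted p = 0.059, edgeR) and none lower, with 1 lower at the unadjusted p and 0 in DESeq2. *Kif5c* was called with control pool 1 left out and not without any other library (adjusted p = 0.104 to 0.345), while *Dclk1* was called whichever library was left out (adjusted p = 0.0129 to 0.0776).

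**Figure D4:**
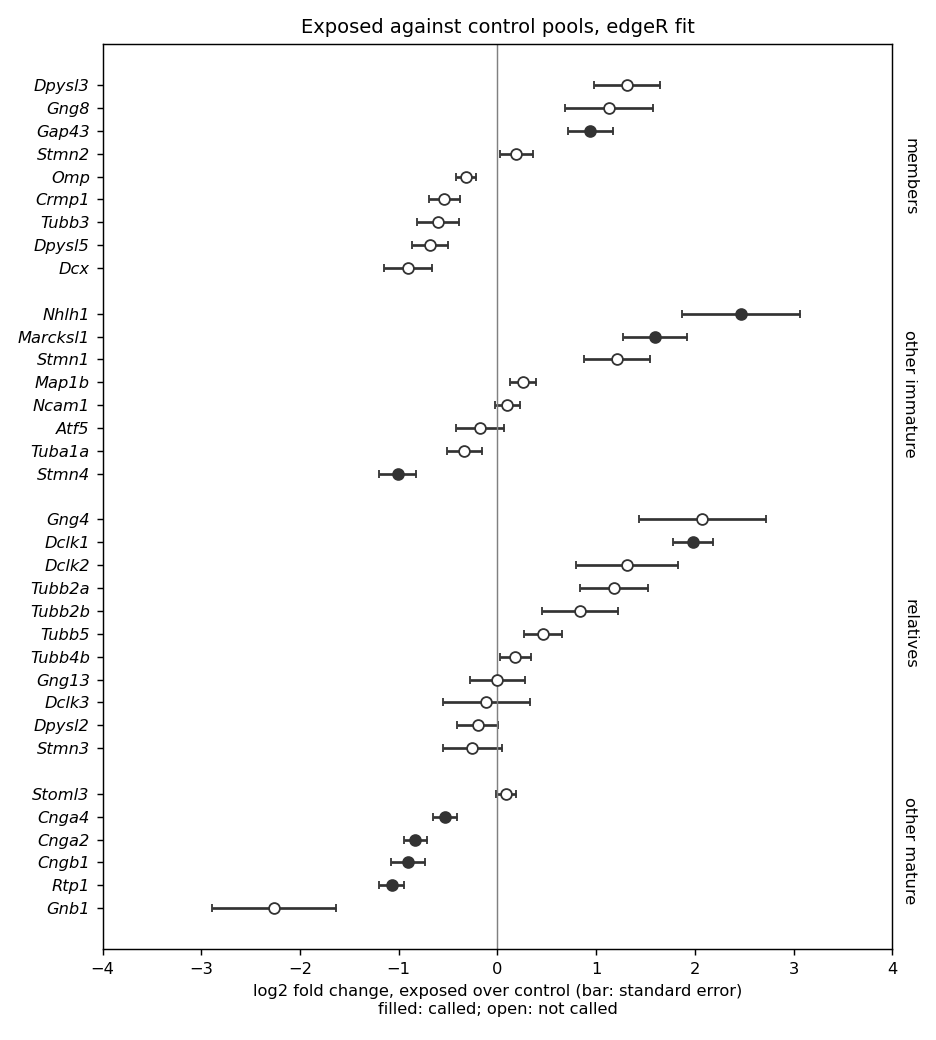
log2 fold change (exposed over control, edgeR) of the members, of other immature genes, of relatives of the members and of other mature genes, with bars of 1 SE; filled points passed the test and open points did not. The members run from 1.31 (*Dpysl3*) to -0.90 (*Dcx*), and the 4 filled mature genes lie between -0.53 and -1.07.

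Other cells of the epithelium express some of the growth genes, so their markers were summed in every pool. Of 6 myeloid markers the summed level was 160, 27.0 and 7.66 TPM in the control pools and 157 and 101 TPM in the exposed pools, against an *Omp* level of at least 18231 TPM. *Tyrobp* and *Ptprc*, of the myeloid list, were above all control pools in the exposed pools, as were 20.3% of all tested rows. Both passed the filter on low counts only through the exposed pools. In the control pools they had 538, 123 and 67 counts and 0, 54 and 1 counts. Neither was called by edgeR, and DESeq2 called 1 of the 2 higher. For *C1qa*, *C1qb*, *Csf1r* and *Cd68* control pool 1 was above both exposed pools, with 36.0, 41.0, 11.1 and 12.6 TPM. *C1qa*, *C1qb* and *Csf1r* were at 0 TPM in control pool 3. The 4 markers of olfactory ensheathing glia, cells that wrap olfactory axons, summed to 20.1, 13.2 and 10.8 TPM in the control pools and 6.35 and 5.43 TPM in the exposed pools, most of it from *Apod*, with *Frzb* at 0 in every pool. Bowman gland markers (3 genes) summed to 10.5 to 28.2 TPM in the control pools and to 4.12 and 7.47 TPM in the exposed pools. The part of these cells in the differences of the members was not tested.

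The remaining marker lists overlapped between the conditions or were low. Sustentacular markers (5 genes) summed to 123 to 369 TPM in the control pools and to 335 and 158 TPM in the exposed pools. Red blood cell markers (4 genes) summed to 1331, 486 and 52.8 TPM in the control pools and 53.8 and 26.3 TPM in the exposed pools. Horizontal basal cell markers (4 genes) summed to 1.54 to 4.86 TPM in the control pools and to 6.95 and 6.97 TPM in the exposed pools, and microvillar markers (4 genes) to 0.035 to 56.6 TPM against 5.57 and 4.58 TPM. The 3 vomeronasal genes summed to 70.2 to 108 TPM against 102 and 105 TPM, with *Trpc2*, the channel of vomeronasal neurons, at 0 in every pool. Globose basal and precursor markers (5 genes) stayed at or below 0.555 TPM except in exposed pool 3, at 8.67 TPM. Of the tested genes of the marker lists of other cell types edgeR called none. At an unadjusted p under 0.05 and the fold threshold, the myeloid gene *Ptprc* was higher, against 8.39% of all rows. By the same rule 1 glial and 1 red blood cell gene were lower, against 9.36% of all rows. DESeq2 called 1 myeloid gene higher, and it called 6.69% of all rows higher.

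**Figure D5:**
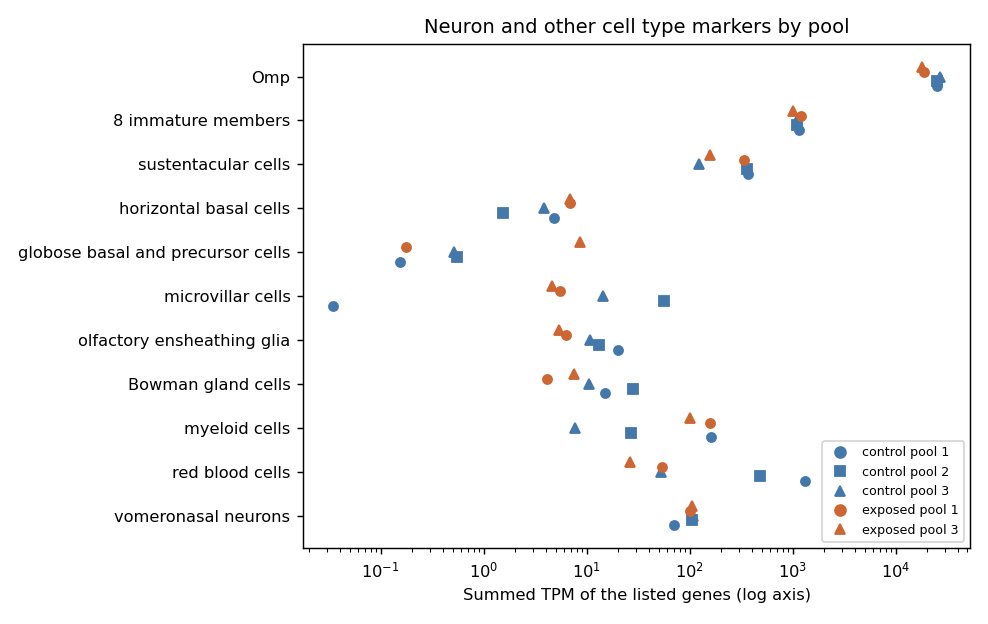
Summed TPM of the listed markers of each cell type by pool, on a log axis, with *Omp* and the sum of the 8 immature markers above. *Omp* lies between 18231 and 27108 TPM, lower in both exposed pools than in any control pool. The immature sum lies between 1007 and 1198 TPM and overlaps between conditions. The sums of red blood, myeloid and microvillar markers differ by over 10-fold among the control pools.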

How the data were processed

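Polyadenylated RNA of 5 pools was amplified by SMARTer chemistry and sequenced as single reads of 50 bases. According to the methods and processing notes, the authors mapped reads with STAR 2.7.0a to GRCm38 with the IRES-tau-GFP sequence added, and the deposited counts are whole reads on the exons of each gene from featureCounts 1.6.3, without strand, multi-mapping reads or reads of several genes, and with neither filter nor normalization. Genes with near-identical copies are therefore undercounted. Symbols came from GENCODE M21 for 55144 of 55411 genes. Samples were grouped by their titles. Exposed pool 2 was not analysed here.

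Counts of genes and of the reporter were tested in R 4.3.3 with edgeR 4.0.16 (TMM, robust glmQLFit, glmQLFTest, condition only, all 5 libraries), where a row was kept if all pools of 1 condition or the other reached 142 counts, the dip between the modes of the log2 count distribution. The 92 spike-in RNAs were left out of library sizes and tests. TPM was computed from counts and exon lengths over genes. The procedure was also run on counts simulated from the levels of the tested rows. Other settings were DESeq2 1.42.0 with apeglm 1.24.0, DESeq2 size factors, spike-in scaling, no robust estimation, glmTreat, an adjusted p under 0.05, 3 other filters on low counts, the pool number as a block, and leaving out single libraries. Tables were handled in Python 3.11.15 with pandas 2.3.3 and numpy 2.4.6. In libraries of 42780403 to 49527380 counts, spike-in RNAs included, 3 counts were 0.0607 to 0.0704 CPM of the gene counts, and with 2 exposed pools the spread within that condition rests on 1 difference per gene.

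The members and the gene lists were chosen with earlier results of these data known. The genes named are the 9 members, *Olfr151* and the reporter, listed genes that were called, members' relatives with at least 10 TPM in a pool that passed the filter, the 5 most abundant genes of the immature and mature lists, the 3 genes nearest in profile to *Omp* and to *Gap43*, and cell type markers. *Cd24a*, *Ablim1*, *Basp1* and *Nrgn* are named for how they stood to the filter on low counts. A gene of the precursor lists is not reported here.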

Additional observations from a re-analysis of the deposited data

How the results depend on the processing

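No setting turned the direction of 8 of the 9 members. *Stmn2* changed sign with spike-in scaling (-0.019) and, as did some other named genes without a call, when a library was left out: *Stmn2* ranged from -0.011 to 0.33, *Atf5* from -0.33 to 0.078, *Dclk3* from -1.11 to 0.45, *Marcks* from -1.55 to 0.42, *Stmn3* from -0.48 to 0.069, *Stoml3* from -0.029 to 0.16 and *Gng13* from -0.23 to 0.17. *Gng13* was also positive with DESeq2 (0.017), its size factors (0.013), no filter (0.024), 10 counts (0.0073) and filterByExpr (0.016), and spike-in scaling, which moved the median of all rows from -0.026 to -0.23, turned *Ncam1* (-0.13), *Stoml3* (-0.15) and *Tubb4b* (-0.025). *Gap43* was called in 4 of 15 alternatives. The count of members called higher was 2 with DESeq2 (*Gap43* and *Dpysl3*). It was 0 with spike-in scaling, glmTreat, an adjusted p under 0.05, 10 counts or filterByExpr. With a control pool left out it was 0 to 1, and the 1 was *Dpysl3* without control pool 3. Members called lower numbered 2 with DESeq2. All rows called higher and lower numbered 671 and 715 with DESeq2 (48.4% higher, against 64.8%), 93 and 48 with spike-in scaling, 146 and 55 with glmTreat, 190 and 91 at 0.05, 162 and 74 with filterByExpr, and 93 to 352 and 19 to 436 with a library left out (44.7% higher without control pool 3). Listed genes outside the members, 4 higher and 5 lower, became 8 higher with DESeq2, 0 and 0 with spike-in scaling, 1 and 1 with glmTreat, 1 higher at 0.05, 2 and 2 with filterByExpr, and 1 to 3 higher and 0 to 6 lower with a library left out.

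With the pool number as a replicate block, 11 rows were called higher and 1 lower, with 0 members higher and 0 and 0 listed genes. The pools share 2 numbers, which the labels do not tie to a day, so pairing was not assumed. The deviations of same-numbered pools correlated at 0.049 and -0.077. With 2 exposed pools their deviations mirror each other, so these values cannot decide whether pools were paired. The difference in the median log2 ratio of *Omp* to the immature markers, 0.02, became -0.19 without *Dpysl5*, 0.28 without *Dpysl3*, -1.27 with *Gap43* and *Gng8* alone and -0.45 with the sum. In CPM the immature share was 7.77% in the control pools and 9.34% in the exposed pools, against 4.17% and 5.62% in TPM. The cause of these shifts was not tested. Genes near the count filter, *Nhlh1* among them, rest on few molecules, and with 2 exposed pools small changes could not be detected.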

Other observations

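*Neurod1*, *Neurog1* and *Cxcr4*, genes of young neurons and their precursors, were below the filter on low counts and are named after their values were seen. *Neurod1* had 6.42 TPM in exposed pool 3 and 0 TPM in the other 4 pools, and *Neurog1* had 2.15 TPM in exposed pool 3, 0.49 TPM in control pool 3 and 0 TPM elsewhere. *Cxcr4*, a chemokine receptor that leukocytes also express, had 0.49, 0.28 and 0 TPM in the control pools and 5.44 and 5.39 TPM in the exposed pools. *Ptprc*, a leukocyte gene, had 0, 0.22 and 0 TPM and 2.05 and 2.13 TPM in the same pools.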
